A study of Mus musculus with 6 samples.

Results

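Sestrins and the GATOR complexes form the branch through which cells pass news of amino acid supply to mTOR complex 1 (mTORC1), the growth-promoting kinase complex that rapamycin inhibits. 9 of their genes were followed, namely the sestrins Sesn1 and Sesn3, the GATOR1 subunits Depdc5, Nprl2 and Nprl3, and the GATOR2 subunits Mios, Wdr24, Wdr59 and Seh1l. They were chosen by name and not by a rule on a measured value, out of the 55487 genes of each deposited table. Earlier results of these data were known when they were chosen. All 9 passed the filter on low counts that left 11950 genes for testing.

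The RNA was poly(A) RNA of naive CD4+ T (TN) cells from the spleen of wild-type mice of the strain C57BL6/J. 3 libraries came from mice with no treatment and 3 from mice given rapamycin in vivo, and the comparison addresses what mTOR inhibition does to these cells. The dose, the duration and the age and sex of the mice are not given in the sources used here. Nothing in the labels tells if separate mice supplied the 3 libraries of a group, and the p-values therefore cover only variation among the libraries, some or all of which may be technical.

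GATOR1 is a GTPase-activating complex for the RagA and RagB GTPases, and its activity keeps mTORC1 off the lysosome. GATOR2 opposes GATOR1. Sestrins bind GATOR2 and hold it back, and leucine binding to Sestrin2 and Sestrin1 releases it, whereas Sestrin3 is known as a poor leucine sensor. In T cells mTORC1 activity accompanies the exit from the naive, resting state.

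Total expected counts ranged from 9712671 to 11393317 in the untreated and from 8757280 to 9315370 in the rapamycin libraries, so that 3 counts correspond to between 0.263 and 0.343 CPM (counts scaled to a common library size). The CD4 T cell markers summed to between 3791 and 3837 CPM in the untreated and between 3098 and 3137 CPM in the rapamycin libraries, and the naive T markers to between 3926 and 3995 against between 4875 and 4957 CPM, with no marker at 0 in all libraries. Cd44, the marker of activated or memory T cells, was at 32 to 36.3 CPM in the untreated and 10.6 to 10.9 CPM in the rapamycin libraries, and summed regulatory T markers were at 7.53 to 8.93 against 11.1 to 14.3 CPM. Summed CD8 T markers were at 19.1 to 20.5 against 87.9 to 91 CPM, plasma cell markers at 30.2 to 31.8 against 1.13 to 2.09, myeloid markers at 42.7 to 48.6 against 13 to 14.7 and B cell markers at 368 to 390 against 344 to 366. The part of these cells and cell states in the results below was not tested. Fewer cells of a type and less RNA per cell cannot be told apart in bulk samples. Fold changes also followed transcript length. Across 9979 genes, which are not independent replicates, Spearman's rho between length and log2 fold change was 0.51, and when genes were split by length into 10 equal bins, the bin of the shortest genes had a median of −0.32 and that of the longest 0.25. The mean fragment length was 240 to 241 bases in the untreated and 252 to 258 bases in the rapamycin libraries, and its part in the results was not tested. The change of each of the 9 genes is therefore given as fitted and again after a correction for length, which brought rho to 0.0114.

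Of the 9 genes, 2 rose with rapamycin (Sesn1 and Mios), 1 fell (Wdr24) and 6 did not pass the test (edgeR's quasi-likelihood test, Benjamini-Hochberg adjusted p under 0.05). Among all tested genes 24.1% were called higher, 23.3% lower and 47.4% in either direction. Whether the shares among the 9 genes differ from these was not tested. The median log2 fold change was −0.05 over the 9 genes and −0.01 over all tested genes. With the length correction, 1 gene rose (Sesn1), 3 fell (Sesn3, Wdr24 and Wdr59) and 5 did not pass, against 20.2% higher, 18.2% lower and 38.4% in either direction among all genes. CPM ranges did not overlap between the groups for Sesn1 and Depdc5, higher with rapamycin, and for Nprl3 and Wdr24, lower. Among all tested genes the groups did not overlap in 53.8%, with rapamycin higher in 26.9% and lower in 26.8%.

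Leaving out a library changed which genes were called. Only Sesn1 was called higher without untreated replicate 1, without rapamycin replicate 1 or without rapamycin replicate 3, where Mios was lost. 0 genes were called lower without untreated replicate 3, where Wdr24 was lost. Nprl3 joined Wdr24 without untreated replicate 1 and without rapamycin replicate 2, and Seh1l joined it without rapamycin replicate 3, which gave 2 lower genes each time.

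**Figure D1:**
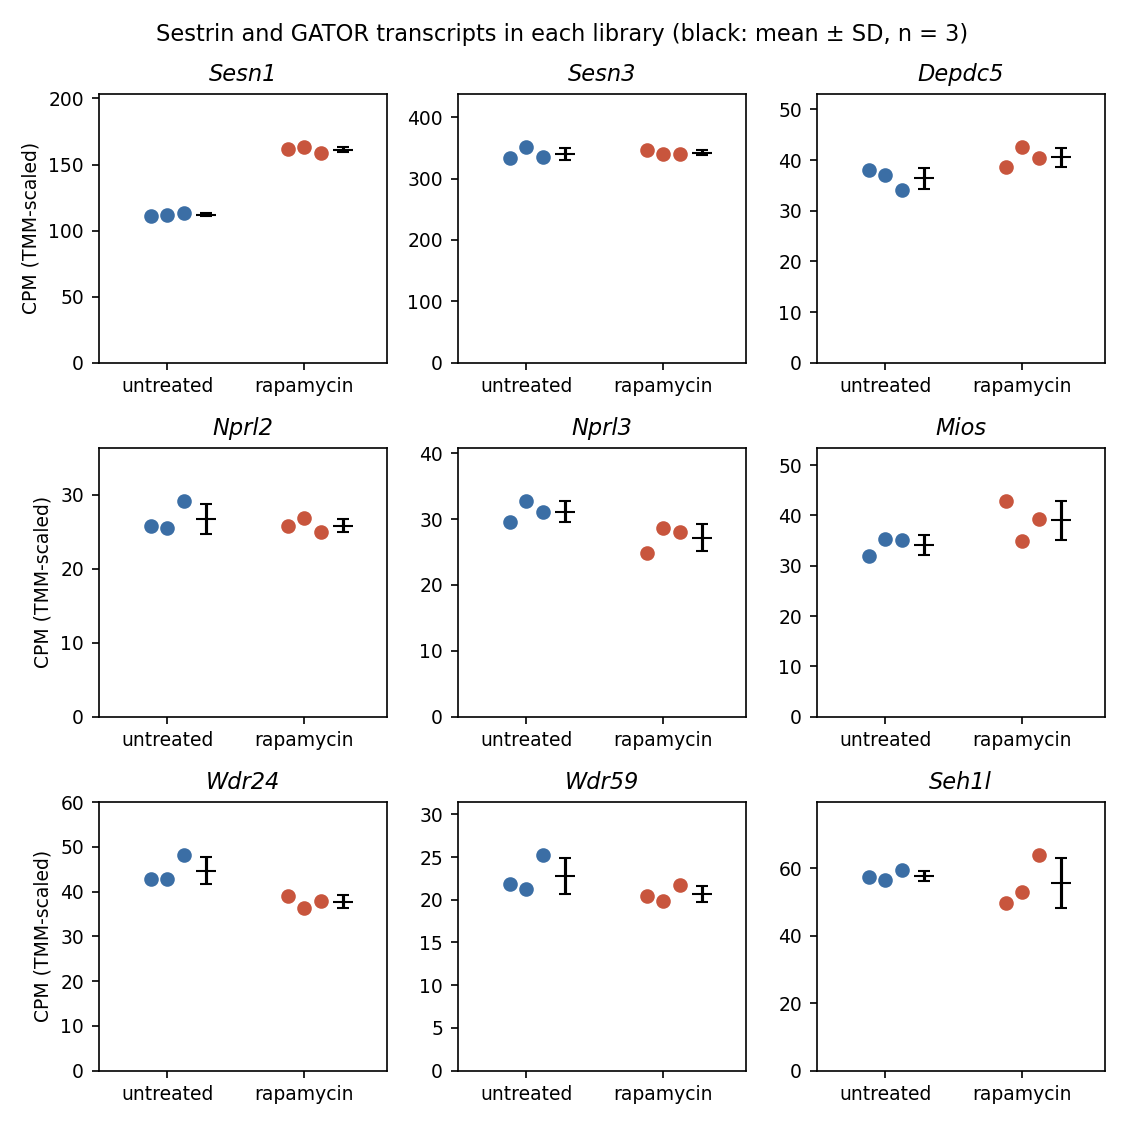
CPM of the 9 genes in each library, 1 panel per gene with its own axis from 0, untreated and rapamycin side by side, with points for libraries and lines for the mean and SD. Sesn1 moves from between 111 and 113 to between 159 and 163 CPM, while Sesn3 stays between 333 and 351 CPM in all 6 libraries.

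Sesn1 encodes Sestrin1, a leucine-binding inhibitor of GATOR2 and a known target of p53 and of FOXO factors. It lies on the plus strand of chromosome 10, from 41809935 to 41908424 (GRCm38, identifier ENSMUSG00000038332). Its level was 111, 112 and 113 CPM in the untreated and 162, 163 and 159 CPM in the rapamycin libraries. All rapamycin libraries stood well above all untreated libraries, and the spread within each group was small. The means were 112 ± 1.11 and 161 ± 2.04 CPM (SD, n = 3), a 1.44-fold rise. The log2 fold change was 0.52 ± 0.04 (SE, 95% interval 0.45 to 0.60), with an edgeR adjusted p of 4.0e-18. Sesn1 was called higher under each of the 19 alternative settings, and with the length correction its log2 fold change was 0.51.

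Sesn3, which encodes Sestrin3, is like Sesn1 a known FOXO target. It lies on the plus strand of chromosome 9, from 14275067 to 14333101 (ENSMUSG00000032009). It was at 333, 351 and 336 CPM in the untreated and at 347, 340 and 340 CPM in the rapamycin libraries. These ranges overlapped fully, with means of 340 ± 9.62 and 342 ± 4.04 CPM (SD, n = 3). The log2 fold change was 0.01 ± 0.03 (SE, 95% interval −0.05 to 0.06, edgeR adjusted p 0.818). Sesn3 has a mean transcript length of 8.73 kb and falls in the bin of the longest genes, whose median log2 fold change was 0.25. Set against genes of its length it fell, with a length-corrected log2 fold change of −0.34 ± 0.03 (SE) and an edgeR adjusted p of 4.2e-16. The call on Sesn3 thus rests on whether length is corrected, whereas that on Sesn1 does not.

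Sesn1 rose and Sesn3 did not pass the test, so, to set their starts side by side, the 250 bases before the start of a main transcript of each are shown, from RefSeq on GRCm38.p6, plus strand, 5′ to 3′, at chr10:41887189-41887438 and chr9:14276051-14276300. Capitals mark a match to the forkhead word GTAAACA, to its variant ATAAACA, to its variant GCAAACA or to its variant ACAAACA, on either strand.
Sesn1: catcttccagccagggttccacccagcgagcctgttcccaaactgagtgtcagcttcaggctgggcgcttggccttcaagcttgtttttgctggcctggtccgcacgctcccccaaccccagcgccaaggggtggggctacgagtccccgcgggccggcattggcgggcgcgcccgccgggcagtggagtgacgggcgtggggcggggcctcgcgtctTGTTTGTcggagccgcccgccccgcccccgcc
Sesn3: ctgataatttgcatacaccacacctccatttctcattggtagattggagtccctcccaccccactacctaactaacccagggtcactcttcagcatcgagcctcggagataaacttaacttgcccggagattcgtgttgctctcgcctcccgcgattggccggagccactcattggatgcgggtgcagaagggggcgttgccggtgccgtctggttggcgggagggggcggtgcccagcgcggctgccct

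The Sesn1 window is 71.2% G and C with 24 CpG dinucleotides, and the Sesn3 window is 59.6% with 16, against medians of 52.4% and 6 over 32851 promoter windows of this length. The Sesn1 window shown holds a forkhead match on the minus strand, beginning 32 bases before the start, and the Sesn3 window holds none. Another Sesn1 window on record, at chr10:41810324-41810573, holds none either. Windows were on record for 7 of the 9 genes, 8 windows in all, and the match in the Sesn1 window shown was the only match among them. A match was present in 15.7% of all windows. The words were chosen with these sequences in view, and a match is a description of letters and not of a bound site.

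On the per-length TPM scale, which allows genes to be compared, Sesn1 and Sesn3 were close in untreated cells and further apart in rapamycin-treated cells. Sesn1 was at 60.1, 60.6 and 60.9 TPM without and at 93.1, 93.8 and 91.9 TPM with rapamycin. Sesn3 was at 51.4, 54.1 and 52.9 TPM without and at 56.7, 55 and 57.6 TPM with rapamycin. The ratio of Sesn3 to Sesn1 within a library was 0.855, 0.893 and 0.869 in the untreated and 0.609, 0.587 and 0.627 in the rapamycin libraries. The groups did not overlap, and the log2 ratio differed by −0.52 (two-sided exact permutation p 0.1, the smallest that 3 against 3 libraries allow, 0.48 adjusted over 6 ratios). This ratio carries no correction for the length trend, and Sesn1 and Sesn3 differ in length, at 2.68 and 8.73 kb. Their length-corrected log2 fold changes were 0.51 and −0.34. Sesn3 TPM was higher in every rapamycin library, but the TPM fits raised the median of all genes by 0.10 to 0.11. Sesn2, the stress-induced sestrin and main leucine sensor, was far lower, at 4.87 ± 0.401 CPM without and 5.7 ± 0.15 CPM with rapamycin (SD, n = 3), and did not pass the test (log2 fold change 0.23, 95% interval −0.18 to 0.63, edgeR adjusted p 0.37). Sesn2 made up 1.72% ± 0.122 of the summed sestrin TPM without and 1.63% ± 0.0451 with rapamycin, while the share of Sesn1 was 52.5% ± 0.601 and 61.2% ± 0.758 (SD, n = 3).

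The Sesn1 annotation holds 2 protein-coding transcripts, of 2600 and 3809 bases, that start at different positions. The abundance-weighted length deposited for Sesn1 lay between 2668 and 2686 bases in every library, close to the shorter form. If the third annotated transcript, of 90 bases, is taken to hold none of the abundance, the longer form accounted for 5.66% to 7.14% of Sesn1 transcripts, with overlapping groups. For Sesn3 the weighted length was between 8506 and 8910 bases, near its longest transcript of 9125 bases, and the groups overlapped as well (exact permutation p 0.8).

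GATOR1 is built of 3 subunits. DEPDC5 anchors the complex to the Rag GTPases, and NPRL2 with NPRL3 forms the part that carries the GTPase-activating function. None of the 3 genes passed the test in either fit, against 47.4% of all tested genes as fitted and 38.4% with the length correction. Depdc5 (ENSMUSG00000037426, chromosome 5, 32863701 to 32994236, plus strand) was at 38.1, 37 and 34.1 CPM without and at 38.7, 42.5 and 40.4 CPM with rapamycin. All rapamycin libraries were above all untreated libraries, by little, with a log2 fold change of 0.15 ± 0.07 (SE, 95% interval 0.01 to 0.30, edgeR adjusted p 0.0831). The length-corrected log2 fold change of Depdc5 was 0.08.

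Nprl2 (ENSMUSG00000010057, chromosome 9, 107542226 to 107545706, plus strand) was at 25.7, 25.5 and 29.1 CPM without and at 25.7, 26.8 and 25 CPM with rapamycin. The groups overlapped, with a log2 fold change of −0.05 ± 0.09 (SE, 95% interval −0.23 to 0.13, edgeR adjusted p 0.704), and the length-corrected value was 0.11. Nprl3 (ENSMUSG00000020289, chromosome 11, 32225628 to 32267707, minus strand) was at 29.5, 32.7 and 31.1 CPM without and at 24.9, 28.7 and 28 CPM with rapamycin. All rapamycin libraries were below all untreated libraries, and the log2 fold change was −0.19 ± 0.09 (SE, 95% interval −0.37 to −0.02, edgeR adjusted p 0.0589). Nprl3 was called lower in 5 of 19 alternatives, among them without untreated replicate 1 (edgeR adjusted p 0.0423) and without rapamycin replicate 2 (edgeR adjusted p 0.0498). Its length-corrected log2 fold change was −0.07.

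Exons of Nprl3 share 1340 bases, 17.7% of its exon bases, with the opposite-strand gene Mpg, a DNA repair glycosylase, which was at 13.1 CPM without and 10.6 CPM with rapamycin. Whether the counting used strand is not given in the sources used here. Nprl3 also neighbours the alpha-globin genes and carries their enhancers in its introns, and the summed erythroid markers were at 7.7 to 11.1 CPM without and 2.51 to 2.9 CPM with rapamycin. Their part in the Nprl3 values was not tested.

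GATOR2 comprises MIOS, WDR24, WDR59, SEH1L and SEC13, of which the last is described with the partner genes. Leaving Sec13 aside, 1 gene of this complex rose, 1 fell and 2 did not pass the test. Sec13 fell as well (log2 fold change −0.25, edgeR adjusted p 7.6e-04). Of all tested genes 24.1% were called higher and 23.3% lower. With the length correction Wdr24 and Wdr59 fell, none of the complex rose, and Sec13 did not pass (edgeR adjusted p 0.456). The shares of all tested genes were then 20.2% higher and 18.2% lower. Mios (ENSMUSG00000042447, chromosome 6, 8209222 to 8236274, plus strand) was at 31.9, 35.4 and 35.1 CPM without and at 42.8, 34.9 and 39.3 CPM with rapamycin. Rapamycin replicate 2 lay inside the untreated range, and the groups overlapped. The means were 34.1 ± 1.93 and 39 ± 3.99 CPM (SD, n = 3), with a log2 fold change of 0.19 ± 0.08 (SE, 95% interval 0.04 to 0.35, edgeR adjusted p 0.0362). The call on Mios was lost in 12 of 19 alternatives. Its edgeR adjusted p was 0.199 without untreated replicate 1, 0.28 without rapamycin replicate 1, 0.0806 without rapamycin replicate 3 and 0.295 with the length correction, where the log2 fold change was 0.11.

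Wdr24, a subunit needed for GATOR2 to oppose GATOR1 (ENSMUSG00000025737, chromosome 17, 25823627 to 25828730, plus strand), was at 42.9, 42.9 and 48.1 CPM without and at 39.1, 36.3 and 37.8 CPM with rapamycin. All rapamycin libraries were below all untreated libraries. The means were 44.6 ± 3 and 37.7 ± 1.39 CPM (SD, n = 3), 0.847-fold, with a log2 fold change of −0.24 ± 0.07 (SE, 95% interval −0.38 to −0.10, edgeR adjusted p 0.00458). The length-corrected log2 fold change was −0.26, with an edgeR adjusted p of 0.00262. Without untreated replicate 3, the highest library, the log2 fold change of Wdr24 was −0.19 and the call was lost (edgeR adjusted p 0.0532). It was lost as well with effective-length offsets (edgeR adjusted p 0.157) and in both fits on the TPM scale, where the group means were 23.1 ± 2.96 and 21.2 ± 2.51 (SD, n = 3).

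Wdr59 (ENSMUSG00000031959, chromosome 8, 111448797 to 111522092, minus strand) was at 21.9, 21.3 and 25.2 CPM without and at 20.4, 19.9 and 21.7 CPM with rapamycin. The groups overlapped, and the log2 fold change was −0.14 ± 0.10 (SE, 95% interval −0.34 to 0.06, edgeR adjusted p 0.252). Like Sesn3 it is a long transcript, of 4.81 kb, and with the length correction it fell, by 0.32 ± 0.10 (SE) on the log2 scale (edgeR adjusted p 0.00819).

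Seh1l, shared between GATOR2 and the nuclear pore (ENSMUSG00000079614, chromosome 18), was at 57.4, 56.5 and 59.4 CPM without and at 49.8, 53 and 63.8 CPM with rapamycin. The rapamycin libraries lay on both sides of the untreated ones, with a log2 fold change of −0.06 ± 0.07 (SE, 95% interval −0.19 to 0.08, edgeR adjusted p 0.503) and a length-corrected value of −0.09. Without rapamycin replicate 3, Seh1l was called lower, at a log2 fold change of −0.17 (edgeR adjusted p 0.0451). Its abundance-weighted transcript length was 3007, 2945 and 2982 bases without and 2887, 2805 and 2805 bases with rapamycin. The groups did not overlap in length (two-sided exact permutation p 0.1, 0.675 adjusted over the 9 genes). Given its 2 transcripts, of 1684 and 3542 bases, these lengths correspond to 69.7% ± 1.67 of the longer form without and 61.8% ± 2.56 with rapamycin (SD, n = 3).

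**Figure D2:**
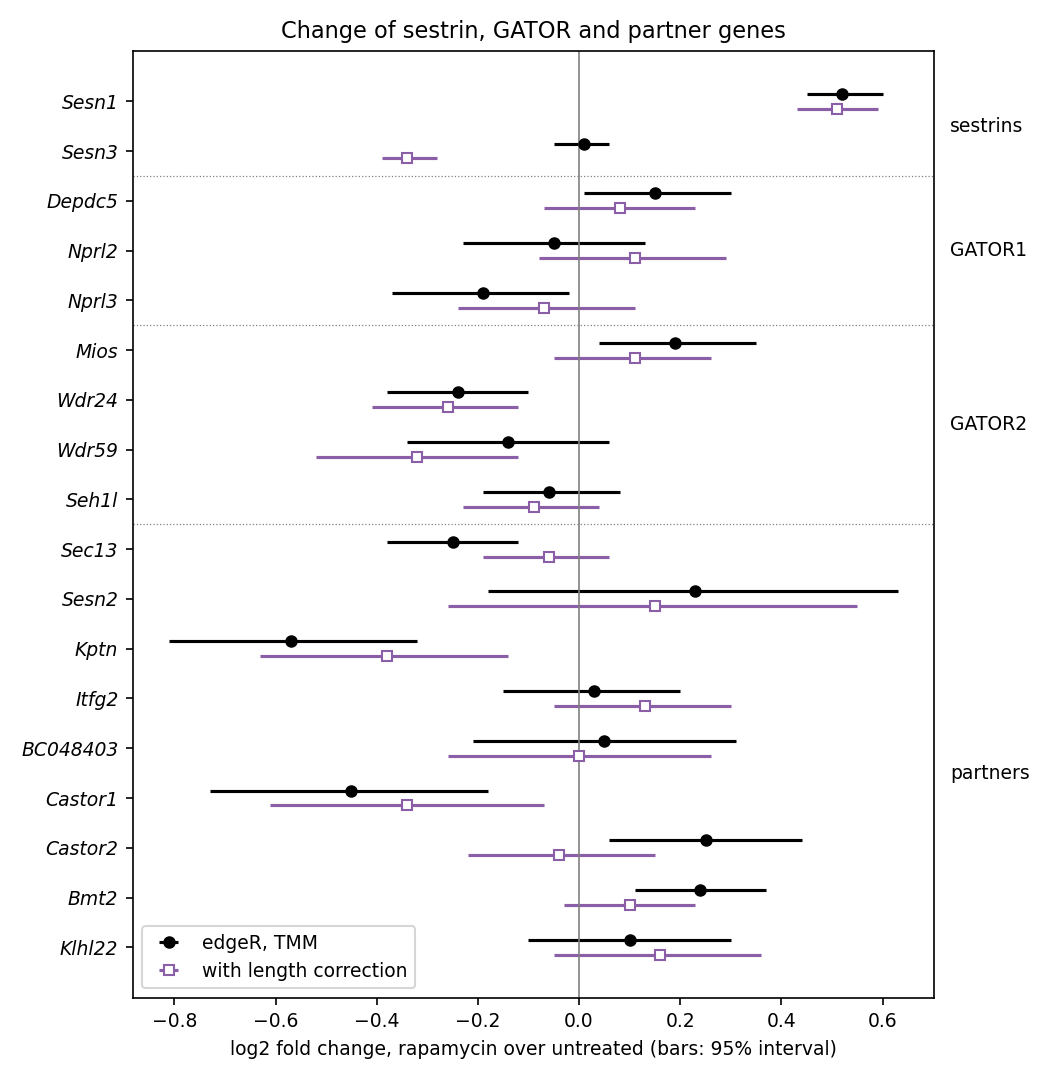
Log2 fold change, rapamycin over untreated, of the 9 genes and 9 partner genes, with bars for the 95% interval, as fitted with edgeR (filled circles) and with the length correction (open squares). Sesn1 keeps its rise in both fits, at 0.52 and 0.51, whereas Sesn3 moves from 0.01 to −0.34.

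The length trend and the place of the 9 genes in it can be read from the plot of fold change against length. Sesn3 and Wdr59 lie under the medians of the bins that hold them, which were 0.25 and 0.13. The bin of Sesn3 runs from 5.09 to 123 kb, and its median length, 6.16 kb, is shorter than Sesn3. Depdc5 and Mios fall in a bin with a median of 0.09, and Nprl2 and Nprl3, at 1.38 and 1.5 kb, in bins with medians of −0.19 and −0.13. Sesn1 and Wdr24 fall in a bin with a median of 0.01, and the correction moved each by little.

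**Figure D3:**
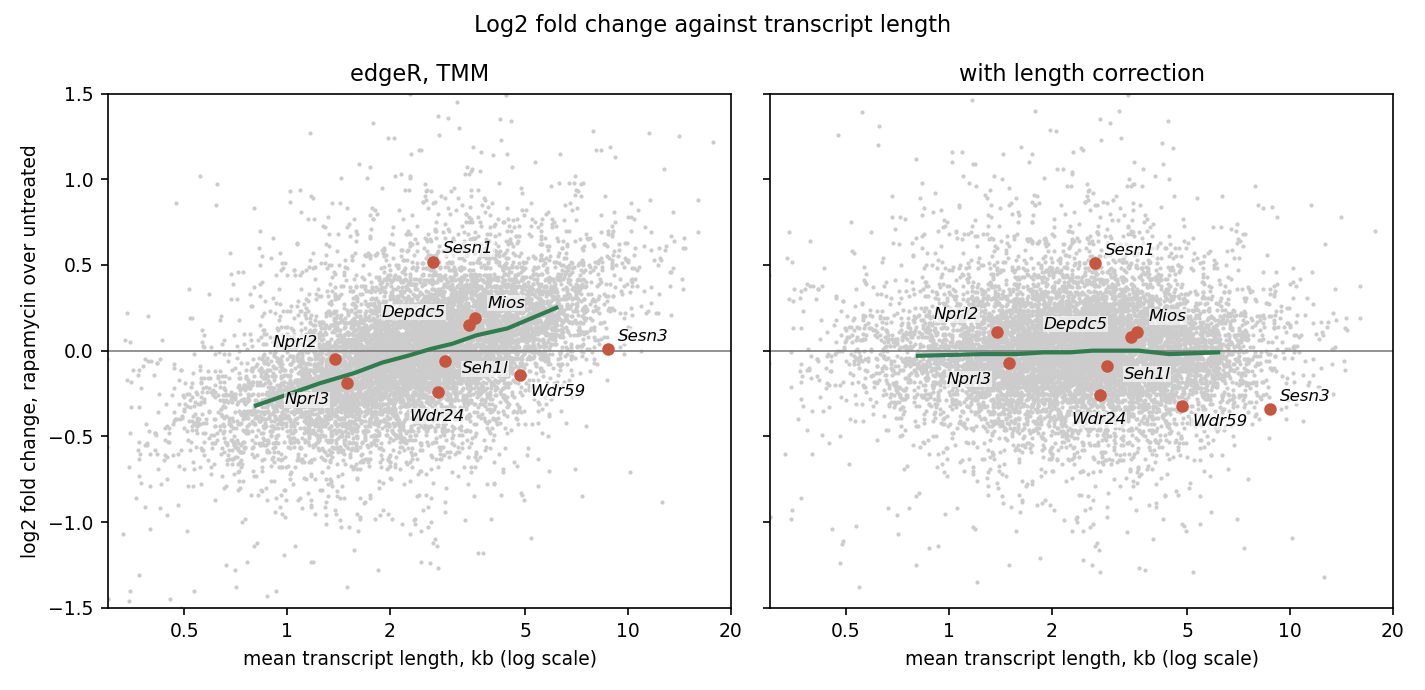
Log2 fold change against mean transcript length (log axis) for 9979 genes in grey, the median of each of the 10 length bins as a green line, and the 9 genes as labelled points, as fitted (left) and after the length correction (right), with genes beyond the drawn range left off. On the left the medians run from −0.32 in the shortest to 0.25 in the longest bin, and Sesn3 sits at 0.01 among the longest genes.

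Levels of the 9 genes spanned from Wdr59 to Sesn1 on the TPM scale. In untreated cells the order from high to low was Sesn1 (60.5 ± 0.393), Sesn3 (52.8 ± 1.36), Nprl3 (34.9 ± 3.98), Nprl2 (31.8 ± 2.45), Seh1l (27.8 ± 0.627), Wdr24 (23.1 ± 2.96), Depdc5 (16.3 ± 0.864), Mios (13.6 ± 0.645) and Wdr59 (6.49 ± 0.668 TPM, SD, n = 3). Nprl3 and Nprl2 overlapped between libraries, and no other neighbours in this order did. With rapamycin Sesn1 (92.9 ± 0.951) and Sesn3 (56.5 ± 1.34) still led and Wdr59 (6.44 ± 0.59 TPM, SD, n = 3) was still lowest. Between them, Nprl2, Seh1l and Nprl3 overlapped with each other, at 31.2 ± 1.15, 30.2 ± 4.42 and 28.9 ± 3.29 TPM, and Depdc5 overlapped with Mios, at 17 ± 2.7 and 16.5 ± 1.49 TPM (SD, n = 3). Sesn1 lay at the 85.1 percentile of tested genes by mean TPM and Wdr59 at the 25.8 percentile.

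**Figure D4:**
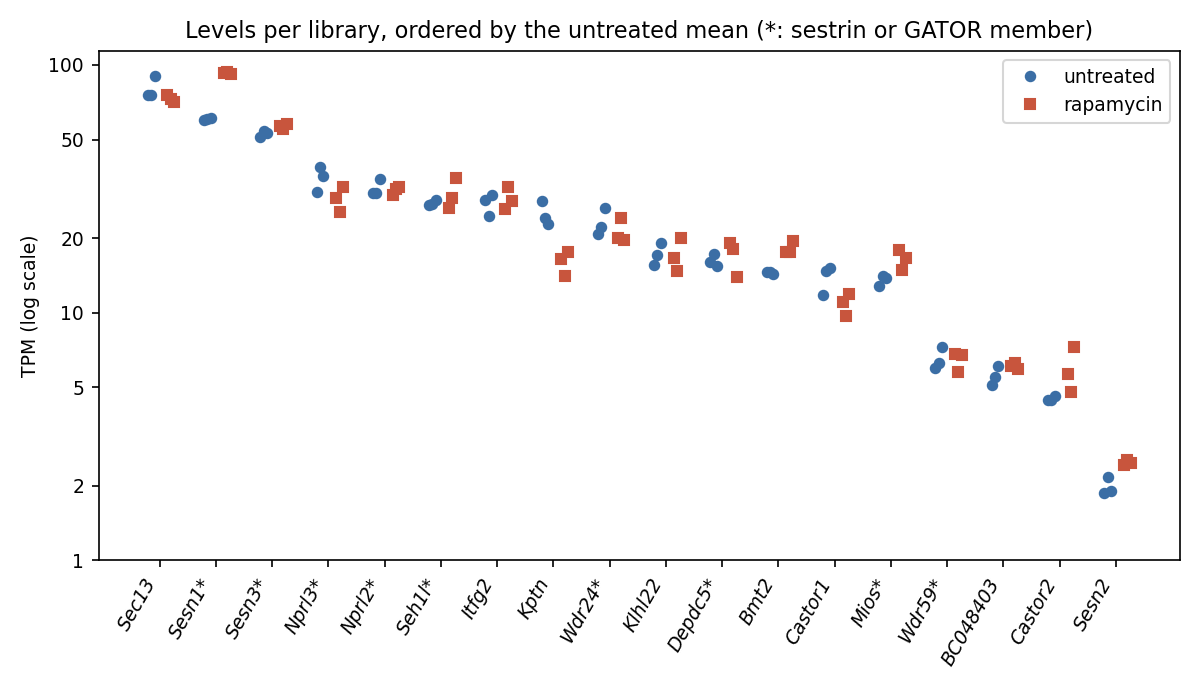
TPM of the 9 genes (marked *) and the 9 partner genes in each library on a log axis, ordered by the untreated mean, with circles for untreated and squares for rapamycin libraries. Sesn1 and Sesn3 lie above the 7 marked GATOR genes in every library, and Wdr59 lies lowest of the marked genes, at 5.76 to 7.24 TPM.

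Within complexes, the ratios of subunits overlapped between the groups. Nprl2 over Depdc5 had a mean of 1.96 ± 0.24 without and 1.88 ± 0.381 with rapamycin, and Nprl3 over Depdc5 of 2.15 ± 0.204 and 1.75 ± 0.485 (SD, n = 3, TPM ratios). In GATOR2, Mios over Wdr24 had a mean of 0.593 ± 0.0598 without and 0.789 ± 0.149 with rapamycin, and Wdr59 over Wdr24 of 0.282 ± 0.00689 and 0.308 ± 0.0599 (SD, n = 3). The ratio of Seh1l to Sec13 had means of 0.346 ± 0.0276 and 0.414 ± 0.0725 (SD, n = 3). For these 5 ratios the two-sided exact permutation p ranged from 0.3 to 0.7. The TPM of Depdc5, Nprl3 and Wdr24 carries an added source of spread, since their estimated transcript lengths varied between libraries. Depdc5 had a weighted length of 4318 bases in rapamycin replicate 3 and of 3070 to 3561 bases in the other 5 libraries, and its TPM was lowest in that library, at 13.9, although its CPM there was 40.4. Rapamycin replicate 2 had the longest estimate for Nprl3, at 1814 bases, and the shortest for Wdr24, at 2356 bases.

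The 9 partner genes, which bind or regulate the complexes, moved in both directions. 2 rose, 3 fell and 4 did not pass the test, against 47.4% of all tested genes called in either direction, and their median log2 fold change was 0.05. Kptn, a subunit of the KICSTOR complex that holds GATOR1 at the lysosome, fell from 17.6 ± 1.01 to 11.9 ± 1.53 CPM (SD, n = 3), with a log2 fold change of −0.57 ± 0.12 (SE, edgeR adjusted p 9.8e-05), and −0.38 after the correction. The KICSTOR genes Itfg2 and BC048403 (Kics2) had log2 fold changes of 0.03 and 0.05 and did not pass the test.

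The arginine sensor gene Castor1 fell from 14.1 ± 1.86 to 10.3 ± 1.06 CPM (SD, n = 3; log2 fold change −0.45 ± 0.14, SE, edgeR adjusted p 0.00455), and its length-corrected log2 fold change was −0.34 (edgeR adjusted p 0.0426). The call on Castor1 was lost in 3 of 19 alternatives, namely both TPM fits and the correction for length and GC content (edgeR adjusted p 0.0534). Castor2, its relative, rose from 23.5 ± 0.818 to 28 ± 3.36 CPM (SD, n = 3; log2 fold change 0.25, edgeR adjusted p 0.0228), but was at −0.04 after the correction. The call on Castor2 was lost in 12 of 19 alternatives, among them without untreated replicate 3, without rapamycin replicate 1 and without rapamycin replicate 3 (edgeR adjusted p 0.0807, 0.0746 and 0.18). Bmt2, also called Samtor, the S-adenosylmethionine sensor that acts on GATOR1, rose by a log2 fold change of 0.24 (edgeR adjusted p 0.00219), with 0.10 after the correction (edgeR adjusted p 0.25). Sec13, the GATOR2 subunit that also serves the nuclear pore and COPII vesicles, fell from 59.7 ± 4.57 to 50.1 ± 1.04 CPM (SD, n = 3; log2 fold change −0.25, edgeR adjusted p 7.6e-04), and its length-corrected log2 fold change was −0.06 (edgeR adjusted p 0.456). Klhl22, which directs DEPDC5 to degradation, had a log2 fold change of 0.10 and did not pass the test. With the length correction 0 of these partners rose and 2 fell, Kptn and Castor1, against 20.2% and 18.2% of all tested genes. The corrected median log2 fold change of the partners was 0.00.

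Downstream of GATOR1, the list of the Rag GTPase branch had 12 tested genes, of which 4 rose and 4 fell. The median log2 fold change of the 12 was −0.12. Of all tested genes 24.1% were called higher and 23.3% lower. Lamtor4, Lamtor2 and Lamtor1, short genes of the Ragulator complex that tethers Rag GTPases to the lysosome, fell by 0.59, 0.38 and 0.36 on the log2 scale (edgeR adjusted p 9.8e-06, 1.3e-05 and 3.8e-05). Fnip1, a partner of folliculin in the GTPase-activating complex for RagC and RagD, rose by 0.32 (edgeR adjusted p 5.3e-05). With the length correction 2 of the 12 rose and 1 fell, against 20.2% and 18.2% of all tested genes. Lamtor4 was at −0.34, Lamtor2 at −0.04, Lamtor1 at −0.15 and Fnip1 at 0.07 on the corrected log2 scale.

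Of 9 genes of the TSC complex and mTORC1, 4 rose and 2 fell, against 24.1% and 23.3% of all tested genes. The median log2 fold change of the 9 was 0.07. With the length correction 2 rose and 1 fell, against 20.2% and 18.2% of all tested genes. Tsc1, which stabilises the complex that inhibits mTORC1, rose by 0.50 on the log2 scale (edgeR adjusted p 2.3e-13, 0.24 after the correction). Mtor, the kinase itself, rose from 75.3 to 92.5 CPM (log2 fold change 0.30, edgeR adjusted p 9.5e-07) and was at 0.02 after the correction. Deptor, an inhibitor of the kinase, rose from 0.626 ± 0.287 to 1.74 ± 0.558 CPM (SD, n = 3; log2 fold change 1.44, edgeR adjusted p 0.00664) and was at 1.22 after the correction. At this low level the call on Deptor was lost in 3 of 18 alternatives, both TPM fits and effective-length offsets, and its log2 fold change was 0.26 with limma on log2(TPM + 1). Mlst8, a shared subunit of both mTOR complexes, fell by 0.25 on the log2 scale (edgeR adjusted p 0.00693) and was at −0.26 after the correction.

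For known transcriptional regulators of the sestrins and for AMPK subunits, 11 genes were tested, of which 5 rose and 2 fell. The median log2 fold change of the 11 was −0.00. Of all tested genes 24.1% were called higher and 23.3% lower. With the length correction 2 rose and 2 fell, against 20.2% and 18.2% of all tested genes. Foxo1 fell from 466 ± 6.4 to 415 ± 6.24 CPM (SD, n = 3; log2 fold change −0.17, edgeR adjusted p 4.2e-08) and, like Sesn3 a long gene, was at −0.51 after the correction. Foxo3 and Foxo4 rose by 0.15 and 0.25 (edgeR adjusted p 0.00471 and 6.3e-04), and after the correction were at −0.11 and 0.22. The call on Foxo3 was lost without rapamycin replicate 2 (edgeR adjusted p 0.0982). Trp53, the gene for p53, rose by 0.09 (edgeR adjusted p 0.027). The call on Trp53 was lost in 9 of 19 alternatives, among them without untreated replicate 1 or 3 or rapamycin replicate 2 or 3 (edgeR adjusted p 0.108, 0.0521, 0.0674 and 0.0908). Atf4, a stress factor known to induce Sesn2, fell by 0.18 on the log2 scale (edgeR adjusted p 7.3e-07). With the length correction Trp53 was at 0.15 and Atf4 at −0.11. Prkaa1, the AMPK catalytic subunit, rose by 0.20 (edgeR adjusted p 0.00225) and was at 0.03 after the correction. Prkaa2, the other catalytic subunit, had 0 counts in every library, which allows up to 0.263 to 0.343 CPM.

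Of 6 tested genes for leucine transport and use, 1 rose and 4 fell, against 24.1% and 23.3% of all tested genes. The median log2 fold change of the 6 was −0.20. With the length correction 1 rose and 3 fell, against 20.2% and 18.2% of all tested genes. Lars2, the mitochondrial leucyl-tRNA synthetase, fell from 202 ± 6.11 to 63.8 ± 2.63 CPM (SD, n = 3; log2 fold change −1.66, edgeR adjusted p 1.0e-39). Slc7a5, the light chain of the main leucine importer, fell by 0.49 on the log2 scale (edgeR adjusted p 5.5e-08), and Bcat2, a leucine transaminase, by 0.23 (edgeR adjusted p 5.4e-04). Slc43a2, a sodium-independent carrier of large neutral amino acids, rose from 53.6 ± 4.95 to 85.4 ± 3.55 CPM (SD, n = 3; log2 fold change 0.67, edgeR adjusted p 2.9e-15). After the correction Lars2 was at −1.76, Slc7a5 at −0.55, Slc43a2 at 0.50 and Bcat2 at −0.15 on the log2 scale.

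The nuclear pore Y complex shares Seh1l and Sec13 with GATOR2. Its list, with Sec13 but without Seh1l, had 9 tested genes, of which 2 rose and 4 fell, with a median log2 fold change of −0.20. Of all tested genes 24.1% were called higher and 23.3% lower, and 20.2% and 18.2% with the length correction. With that correction 0 of the list rose and 2 fell, Nup107 at −0.23 and Ahctf1 at −0.16 on the log2 scale. Ahctf1 had been called higher as fitted, at 0.09 (edgeR adjusted p 0.0292). Nup98 rose by 0.22 (edgeR adjusted p 7.0e-05) and was at −0.01 after the correction. Nup37 and Nup107 fell by 0.64 and 0.21 on the log2 scale (edgeR adjusted p 0.00756 and 0.0102). Nup37 lost its call with the length correction (log2 fold change −0.45, edgeR adjusted p 0.0788), with the correction for length and GC content (edgeR adjusted p 0.053) and without untreated replicate 3 (edgeR adjusted p 0.0559), and Nup107 lost it without untreated replicate 1 and without rapamycin replicate 1 (edgeR adjusted p 0.0665 and 0.0962). The list had 3 calls in place of 6 when any of these 3 libraries was left out.

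**Figure D5:**
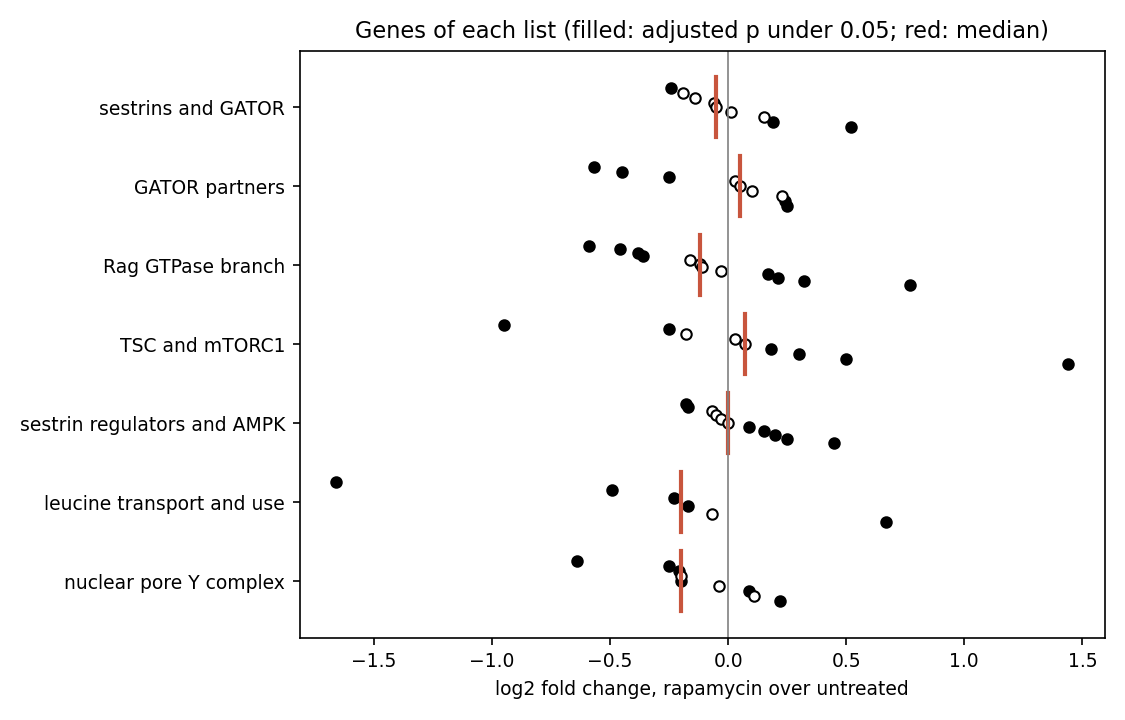
Log2 fold change of each tested gene in the 9 genes and the 6 context lists, as fitted, with filled points for genes past the threshold and a line at each list's median. The medians lie between −0.20 and 0.07, and Lars2 stands lowest at −1.66.

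Genes whose pattern over the 6 libraries lay nearest to Sesn1 were Fam49a, an inhibitor of Rac-driven actin assembly, the ubiquitin ligase gene Mycbp2 and the dynein heavy chain gene Dync1h1. Their root mean square distances of centred log2 CPM from Sesn1 were 0.0119, 0.0137 and 0.015 among 9528 candidates, with log2 fold changes of 0.54, 0.53 and 0.53. The distances were taken without the length correction, and the mean transcript lengths were 4.46, 9 and 11.9 kb, against 2.68 kb for Sesn1. Over the 19 alternatives the log2 fold changes ranged from 0.37 to 0.62, 0.18 to 0.54 and 0.10 to 0.53. Sesn1 itself ranged from 0.48 to 0.62. Nearest to Sesn3 were Plekha2, Uhmk1 and Nckap1l, at distances of 0.0108, 0.0143 and 0.0161 and log2 fold changes of 0.02, −0.01 and −0.00. Their mean transcript lengths were 4.18, 7.86 and 4.6 kb, against 8.73 kb for Sesn3. The order of these distances rests on 3 libraries a group.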

How the data were processed

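Poly(A) RNA of 6 libraries, 3 per group, was sequenced. Per the labels' protocols, libraries were made with a directional kit, and the submitters' processing notes name STAR, RSEM and the build mm10. Versions, annotation release and the strand setting of the counting are not given in the sources used here. The deposited tables, 1 a library, hold for each gene a length, an effective length and RSEM's expected count, TPM and FPKM, per the file headers. The authors' expected counts divide shared reads between genes, and genes with values that were not whole held 25.9% to 29.7% of a library's counts. TPM, as deposited, divides by effective length and is set to a common total in each library. The authors' FPKM values are on the same per-length scale and replaced TPM in an alternative for the ratios. Symbols and positions came from GENCODE vM21 on GRCm38, which matched 55227 identifiers, 260 having no match.

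Expected counts were rounded, filtered with filterByExpr (11950 genes kept), scaled with TMM factors and compared with edgeR's quasi-likelihood test, robust, with group as the only term. P-values were adjusted over all tested genes by the Benjamini-Hochberg method at a threshold of 0.05, and a standard error is the log2 fold change over the square root of F. CPM use the TMM-scaled library size of the genes kept. The length correction fitted each library's deviation from the gene's mean log2 CPM with a spline (5 degrees of freedom) of log2 length, over genes averaging 2 or more on the log2 CPM scale, and entered the fit as offsets. Ratios and lengths were compared by exact permutation. Alternatives were other scalings, filters, DESeq2, effective-length offsets, limma on TPM with a pseudocount of 1 or 0.1, a replicate block, leaving out each library and, chosen after seeing the data, a correction for length and GC content. The scripts were tested on simulated data. Same-numbered libraries were not paired (correlations of deviations −0.105, 0.0464 and −0.0861).

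The rule for named genes took all 9 genes and all partners, of which 1 is not reported here and was left out of the partner counts, up to 4 of each other list by smallest adjusted p among those past the threshold, Trp53, Foxo1, Foxo3, Atf4 and Mtor, and the 3 genes nearest in pattern to Sesn1 and Sesn3; Mpg, Prkaa2 and Ahctf1 were named outside it, after their values were seen. Members and lists were chosen with earlier results of these data known. BC048403 and Bmt2 are the symbols of the annotation. Fnip2, Prkaa2, Slc7a8, Slc43a1 and Bcat1 did not pass the filter. Tools were edgeR 4.0.16, DESeq2 1.42.0 and limma 3.58.1 in R 4.3.3, and scipy 1.17.1 and matplotlib 3.10.9 in Python 3.11.15.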

Additional observations from a re-analysis of the deposited data

How the results depend on the processing

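Sesn1 and Kptn kept their direction and call under all 19 alternatives. Of the 9 genes, 1 was called higher with upper-quartile factors, without composition factors, without a filter, with DESeq2, in both TPM fits, with effective-length offsets and with either length correction. Those called lower numbered 2 with upper-quartile or no composition factors, 0 in both TPM fits and 3 with either length correction. Leaving out a library gave 1 to 2 higher and 0 to 2 lower. The TPM fits raised the median of all genes by 0.10 (log2(TPM + 1)) and 0.11 (log2(TPM + 0.1)), and genes called higher made up 70.1% and 70.3% of all calls against 50.8%, with 42.5% for upper-quartile and 42.8% for no composition factors. Genes called lower numbered 1158 and 1144 in the TPM fits and 1801 with effective-length offsets, against 2785.

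Called partners numbered 2 in the TPM fits, with effective-length offsets and with the length correction, and 1 with the length and GC correction, against 5. The Rag GTPase branch had 3 calls with either length correction against 8. TSC and mTORC1 had 2 with effective-length offsets and 3 with either correction against 6, the sestrin regulators 3 and 4 against 7, leucine transport and use 3 with the length and GC correction against 5, and the Y complex 3 in the TPM fits and 2 with either correction against 6. Leaving out a library gave 4 to 5, 6 to 9, 5 to 6, 5 to 7, 4 to 5 and 3 to 7 calls for these 6 lists.

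Directions reversed as follows, and the cause was not tested. Sesn3 was at −0.03 with upper-quartile and with no composition factors, −0.01 without a filter, −0.02 with effective-length offsets, −0.34 with the length and −0.32 with the length and GC correction. With effective-length offsets Depdc5 was at −0.05, Seh1l at 0.01 and Klhl22 at −0.13. In the TPM fits Seh1l was at 0.11, Klhl22 at −0.02, Mlst8 at 0.04 and Uhmk1 at 0.08. Nprl2 was at 0.11 and 0.12, Castor2 at −0.04 and −0.02, Nup98 at −0.01 and −0.03 and Foxo3 at −0.11 and −0.09 with the 2 corrections, and Prkaa1 at −0.01 with length and GC. Itfg2 was at −0.02, −0.01 and −0.05 and Plekha2 at −0.02, −0.03, −0.11 and −0.10 under the settings that reversed them. The weighted length from effective lengths differed by −11 bases for Sesn1 and −5 for Mios. Leaving out a library moved Sesn3 from −0.01 to 0.03, Nprl2 from −0.08 to 0.01, Seh1l from −0.17 to 0.02, Itfg2 from −0.05 to 0.09, BC048403 from −0.01 to 0.11 and the log2 ratio of Nprl2 to Depdc5 from −0.23 to 0.04. Length differences ranged from −64 to 138 bases for Sesn3, −11 to 30 for Mios, −144 to 174 for Wdr24 and −274 to 39 for Wdr59.

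With the replicate block 2850 genes were called higher and 2743 lower, 5559 calls kept their direction and 3 of the 9 genes were called. Replicate numbers are shared names only. Depth was 8757280 to 11393317 counts a library with 3 libraries a group, and the 95% intervals printed with each gene give the precision this allows.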
